A study of Mus musculus with 20 samples.

Results

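Triglyceride, the storage fat of the liver, is assembled by a short chain of enzymes, and 10 genes of that chain are described here: Gpam, Gpat3 and Gpat4, Agpat2 and Agpat3, Lpin1 and Lpin2, Mogat1, Dgat1 and Dgat2. They were chosen by what they encode, with earlier results of these data known. They are 10 of the 46095 gene symbols of the deposited count table, where Gpat3 is written under its older symbol Agpat9. Each of the 10 was among the 14440 genes that passed the low-count filter and were tested. RNA sequencing was done on the livers of 20 mice aged 31 to 33 weeks, in a study of Pck1 and fatty liver disease with inflammation. Pck1 encodes the cytosolic phosphoenolpyruvate carboxykinase of gluconeogenesis. The 4 groups of 5 mice were wild type on chow (WT chow), wild type on a diet that brings on non-alcoholic steatohepatitis (WT NASH), and mice labelled Pck1-cKO on chow (KO chow) or on that diet (KO NASH). Each diet was given for 24 weeks. The promoter that drives the Cre recombinase of the cKO mice, the strain and the make-up of the NASH diet are not stated in the labels.

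In the glycerol phosphate route, a glycerol-3-phosphate acyltransferase (GPAT) puts a first fatty acid on glycerol 3-phosphate, and an acylglycerol-phosphate acyltransferase (AGPAT) adds the second to give phosphatidic acid. A lipin removes the phosphate to leave diacylglycerol, and a diacylglycerol acyltransferase (DGAT) adds the last fatty acid. In a side route, a monoacylglycerol acyltransferase such as Mogat1 makes diacylglycerol from monoacylglycerol without passing through glycerol phosphate. The liver uses both routes to store fat in droplets and to load it on very low density lipoprotein.

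Library totals were 9958935 to 20601955 counts. Values are CPM (read counts scaled to a fixed library total) with library sizes scaled by TMM, and a gene is called at an edgeR quasi-likelihood adjusted p under 0.05 over all tested genes. Pck1 checked the genotype labels: it lay between 1700 and 4640 CPM in the 10 WT libraries and between 300 and 861 CPM in the 10 KO libraries. Sex, read from 4 Y-linked genes because the labels do not give it, was not balanced: all 5 WT chow mice were male, 4 of the 5 WT NASH mice were female (all but replicate 4), replicates 3 and 5 were the 2 females of KO chow, and replicate 2 was the 1 female of KO NASH. In 6 libraries (WT chow replicates 3, 4 and 5, WT NASH replicate 4, KO chow replicates 4 and 5) longer genes read relatively lower, with a slope of log2 CPM on log2 gene length of -0.34 to -0.25 against 0.01 to 0.19 in the other 14. Fits with sex, with that slope, with both, within a sex and without those 6 libraries were therefore also run, and the member calls they change are given with each member or with the diet comparisons. Hepatocyte markers (8 genes such as Alb and Ttr) summed to 46600 to 119000 CPM over the libraries, as the liver label says. Of the 8, Serpina1c was called lower in KO on both diets, also with sex as a term and without the 6 libraries.

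The members differed widely in abundance. Levels of different genes are compared here as CPM per kilobase of exonic length, and order is described without a test. In WT chow, Dgat2 was the most abundant at 88.4 ± 21 CPM per kilobase (SD, n = 5), followed by Agpat2 at 70.1 ± 28.8. Lpin2 (37.4 ± 10.5), Gpam (31.4 ± 8.64), Agpat3 (31.2 ± 7.01) and Gpat4 (28.3 ± 14.9) came next and lay within each other's SD. Lpin1 followed at 14.2 ± 15.8, Dgat1 at 8.81 ± 0.515, Gpat3 at 2.83 ± 0.898 and Mogat1 at 0.891 ± 0.859. Dgat2 kept the first place and Mogat1 the last in all 4 groups on this scale. Gpat3 moved from the ninth place in both WT groups to the eighth in both KO groups, where it stood at 11.6 ± 4.66 on chow and 11 ± 2.71 on the NASH diet. With coding length in place of exonic length, Agpat3 ranked first in WT chow, KO chow and KO NASH, so that the order among the abundant members depends on which length is used, while Mogat1 stayed last in all 4 groups. Gpat3 was then eighth in WT NASH as in both KO groups, and ninth in WT chow.

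**Figure D1:**
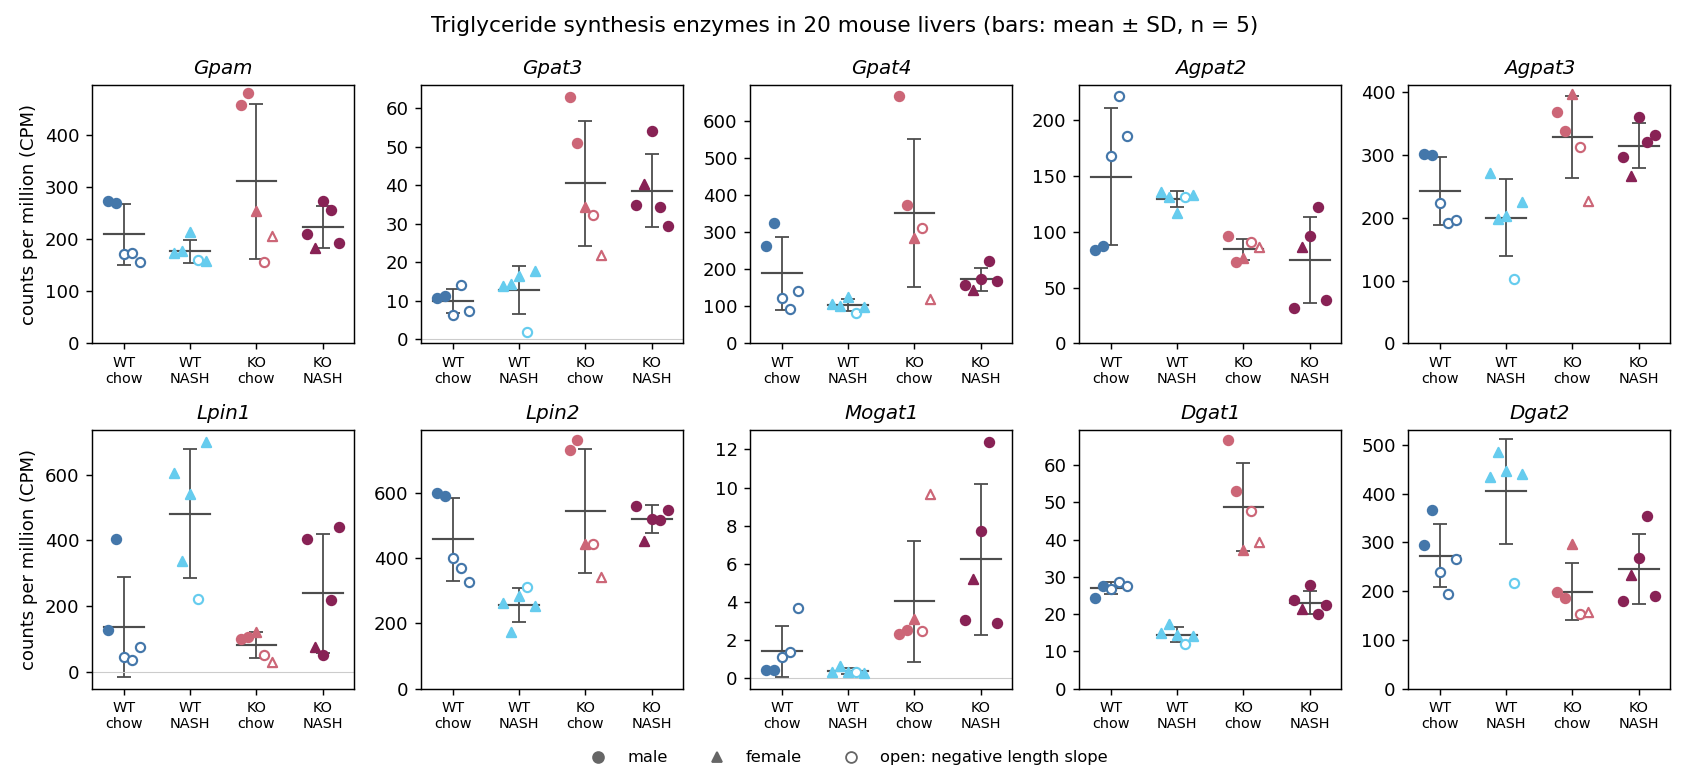
Each panel shows 1 gene, with CPM on a linear axis for each library, the mean as a line and the SD as bars (n = 5). Circles are males, triangles females, and open symbols the 6 libraries of negative length slope; Gpat3 and Dgat1 lie higher in every KO library than in every WT library of the same diet.

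The effect of the genotype was measured within each diet. On chow, 2 members rose in KO, Gpat3 and Dgat1, against a background of 3.03% of all tested genes called higher. edgeR called 0 members lower, where the background was 2.49%, and 1 member was lower at an unadjusted p under 0.05 (DESeq2 called 2 higher and 0 lower, limma voom 6 and 1). On the NASH diet, 4 members rose in KO, Gpat3, Lpin2, Dgat1 and Mogat1, against 4.9% of genes called higher. Again edgeR called 0 lower, against 4.74% of all genes, with 2 members lower at an unadjusted p under 0.05 (DESeq2 called 5 higher and 1 lower, limma voom 6 and 3). The median log2 fold change of the 10 members was 0.50 on chow and 0.66 on the NASH diet, where the median of all tested genes was 0 in both. The background shares belong to the edgeR fit, and those of DESeq2 and limma voom are not given here. These 2 comparisons share no libraries. In bulk liver, a change in the number of cells that express a gene and a change in RNA per cell cannot be told apart.

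**Figure D2:**
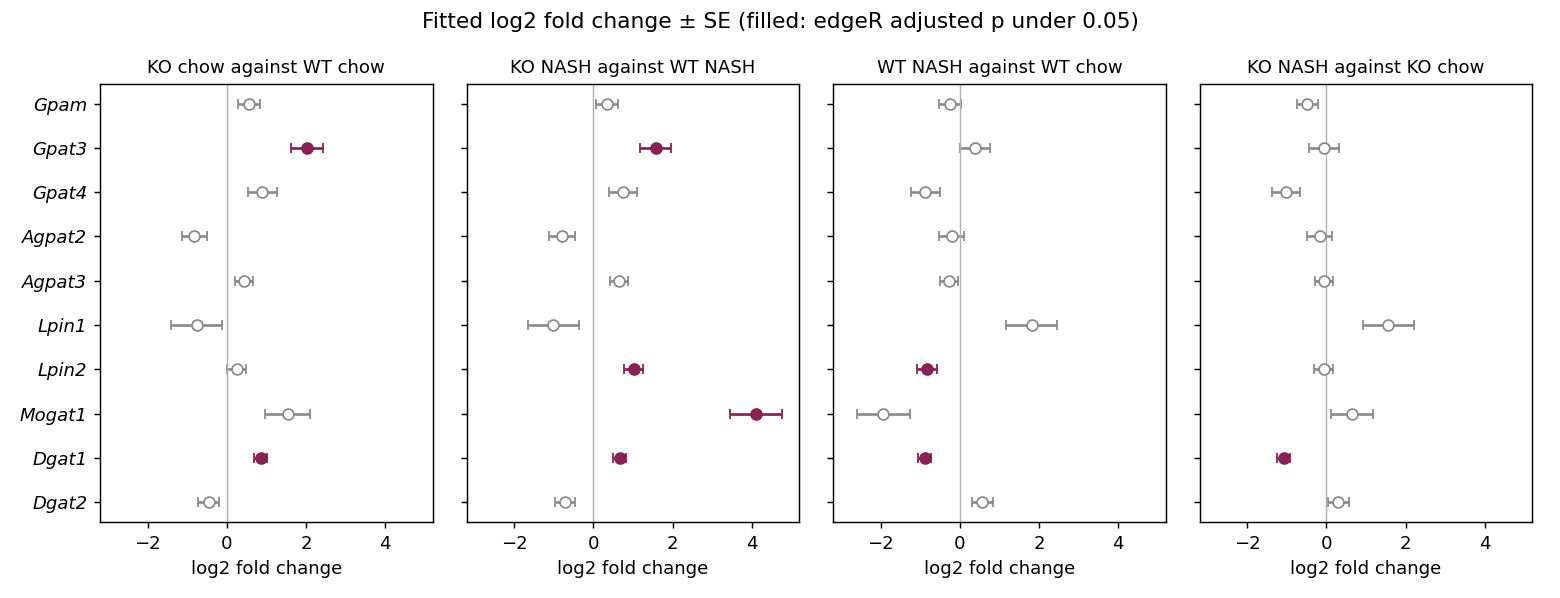
Fitted log2 fold changes (x axis) of the 10 members with their standard errors in 4 comparisons, filled where the edgeR adjusted p was under 0.05. Gpat3 and Dgat1 are filled in both genotype comparisons, and Dgat1 is filled on the left of 0 in both diet comparisons.

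Gpat3 encodes a GPAT of the endoplasmic reticulum that is best known from fat tissue. The gene lies at chr5:100845713-100899102 on the plus strand of GRCm38. Its promoter is shown because Gpat3 had the clearest genotype difference of the first enzyme step, with that of Mogat1 beside it, which had the widest genotype difference of the members on the NASH diet. Both run from 250 bases before to 50 bases after a RefSeq start (build GRCm38.p6, plus strand), and capitals mark matches on either strand to the E-box CACGTG, the nuclear receptor element AGGTCA, the sterol response element TCACNCCAC, the GC box GGGCGG, the CCAAT box CCAAT or the TATA box TATAAA.
Gpat3, chr5:100845979-100846278: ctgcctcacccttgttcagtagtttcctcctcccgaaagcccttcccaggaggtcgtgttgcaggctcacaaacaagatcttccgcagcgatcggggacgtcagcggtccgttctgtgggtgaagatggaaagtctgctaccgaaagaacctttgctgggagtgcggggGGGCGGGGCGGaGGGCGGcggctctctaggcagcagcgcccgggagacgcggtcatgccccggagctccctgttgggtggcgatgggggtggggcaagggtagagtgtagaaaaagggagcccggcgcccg
Mogat1, chr1:78510810-78511109: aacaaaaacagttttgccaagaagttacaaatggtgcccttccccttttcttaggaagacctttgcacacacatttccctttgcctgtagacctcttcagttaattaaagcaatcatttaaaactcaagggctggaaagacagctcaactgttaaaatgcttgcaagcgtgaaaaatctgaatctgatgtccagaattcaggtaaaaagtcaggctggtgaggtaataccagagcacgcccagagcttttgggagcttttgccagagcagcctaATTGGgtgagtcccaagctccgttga
The Gpat3 window was rich in G and C (64.3%, where the median of all 32851 promoters was 52.7%) and held 3 GC boxes, of which the first and the next share a base, a motif found in 35.7% of promoters. The Mogat1 window had a G and C content of 43.7%, the lowest of the 10 windows that matched 7 of the members, and held 1 CCAAT box on the minus strand just after the start, a motif found in 37.4%. A match is a run of letters and not a shown binding site.

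In WT chow, Gpat3 measured 10.7, 11.3, 6.37, 14.1 and 7.21 CPM in replicates 1 to 5, and in KO chow 63, 50.9, 34.4, 32.2 and 21.9 CPM. The lowest KO library thus lay above the highest WT library. In WT NASH the values were 13.7, 14.2, 16.3, 1.91 and 17.8 CPM, and in KO NASH 34.9, 40.2, 54.1, 34.2 and 29.5 CPM. Here too all KO libraries lay above all WT libraries, and replicate 4 of WT NASH, with 13 reads, lay far below the other 4. The mean was 9.92 ± 3.14 in WT chow and 40.5 ± 16.3 in KO chow (SD, n = 5), a log2 fold change of 2.03 (SE 0.397, adjusted p = 0.00548 by edgeR). Under the NASH diet the mean was 12.8 ± 6.31 in WT and 38.6 ± 9.48 in KO, a log2 fold change of 1.58 (SE 0.39, adjusted p = 0.016 by edgeR). The increase on chow was called under each of the 14 alternatives that give a value and without any 1 library, with log2 fold changes of 1.70 to 2.56. With the NASH diet it was 1.70 with sex as a term and then not called (adjusted p = 0.0564 by edgeR; over the alternatives p ran from 0.000275 to 0.19), and 1.54 and called with sex and slope together (adjusted p = 0.0137 by edgeR). Within males, where WT NASH is replicate 4 alone, it was 4.35 (adjusted p = 0.00248 by edgeR), and within females, where KO NASH is 1 library, 1.40 and not called (adjusted p = 0.19 by edgeR); a lone library is assumed to vary like the rest. Part of Gpat3 is covered by other annotated genes: 29% of its 50-base windows also occur in another gene, chiefly the antisense gene 4930458D05Rik, which shares 30.04% of the exonic length and is not a row of the table. Whether counting used the strand is not stated, so reads of the antisense gene cannot be told from those of Gpat3.

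Gpam, a mitochondrial GPAT (chr19:55067268-55127238, minus strand), and Gpat4, a GPAT of the endoplasmic reticulum (chr8:23171265-23208346, minus strand), were not called in any comparison by the edgeR fit. Gpam measured 209 ± 57.6 CPM in WT chow, 311 ± 148 in KO chow, 176 ± 22.2 in WT NASH and 223 ± 39.7 in KO NASH (SD, n = 5). Its spread in KO chow came from 2 libraries at 458 and 480 CPM, replicates 1 and 2, while the other 3 lay at 157 to 254. Gpat4 was at 92.3 to 324 CPM in WT chow and 121 to 669 in KO chow, overlapping, and at 82.7 to 126 in WT NASH and 143 to 224 in KO NASH, where the groups did not overlap. The Gpat4 log2 fold changes were 0.90 on chow (SE 0.36, adjusted p = 0.162 by edgeR) and 0.75 on the NASH diet (SE 0.359, adjusted p = 0.195 by edgeR). On chow, the fit with sex and slope called Gpat4 at 0.84 (adjusted p = 0.0149 by edgeR; over the alternatives p ran from 0.000497 to 0.378). Without KO chow replicate 5 it was 1.15 and also called (adjusted p = 0.0314 by edgeR). The Gpat4 value on the NASH diet was called without the 6 libraries of negative slope (0.68, adjusted p = 0.0386 by edgeR), with only the 2 groups compared (0.74, adjusted p = 0.012 by edgeR) and by limma voom (adjusted p = 0.0208). It was 0.12 with sex and slope (adjusted p = 0.797 by edgeR; over the alternatives p ran from 0.012 to 0.97).

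As a share of the 3 GPAT genes per kilobase, Gpat3 was 3.49% to 9.16% in WT chow and 9.63% to 11.6% in KO chow. On the NASH diet it was 1.47% to 11.7% in WT and 11.9% to 19% in KO. The KO libraries lay above the WT libraries of the same diet, narrowly so for WT NASH replicate 5 at 11.7%. Gpam stayed the most abundant GPAT per kilobase in WT NASH (54.5% to 65.2%) and KO NASH (45.5% to 49.8%), while in KO chow its share ran from 29.7% to 56%. In KO chow the mean of Gpat4 was the higher, at 52.7 ± 30 CPM per kilobase against 46.6 ± 22.2 for Gpam (SD, n = 5). With coding length Gpat4 had the higher mean in all 4 groups. It was at 126 CPM per kilobase against 90 for Gpam in KO NASH, and 74.9 against 71.1 in WT NASH. On chow it was at 137 against 84.3 in WT and 256 against 125 in KO. With coding length, the Gpat3 share on chow overlapped between genotypes (2.43% to 7.25% in WT and 6.68% to 8.88% in KO), as it did on the NASH diet (1.15% to 9.15% and 8.92% to 14.9%).

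**Figure D3:**
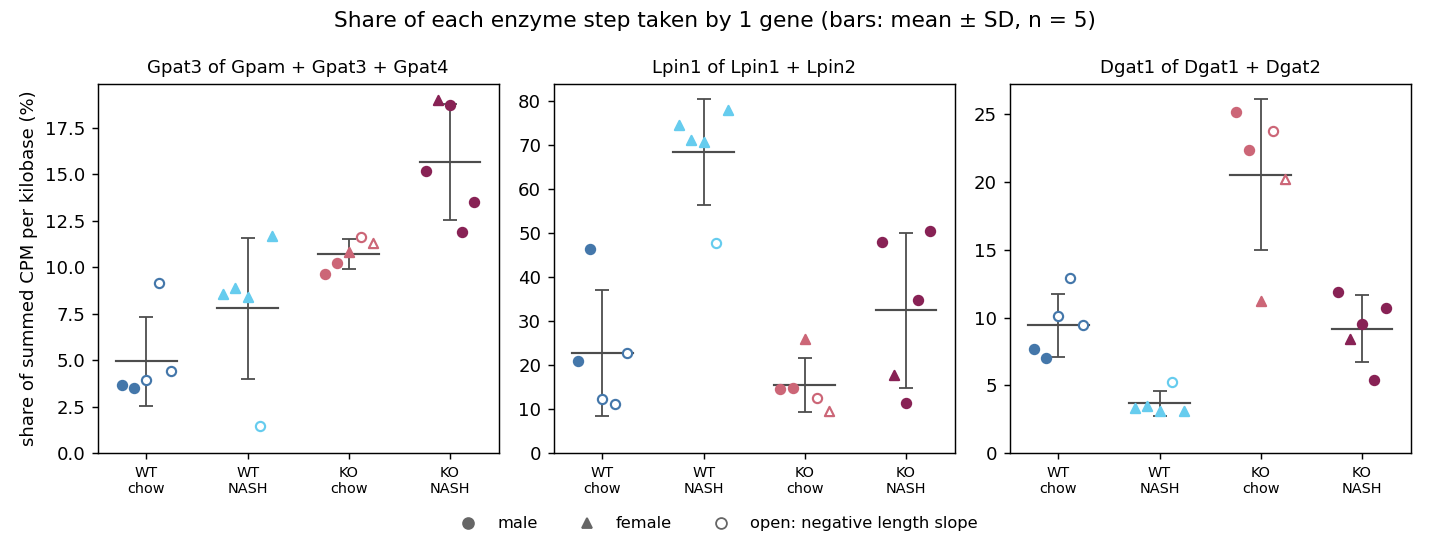
Share of summed CPM per kilobase of exonic length (y axis, %) taken by Gpat3 among 3 GPAT genes, Lpin1 among 2 lipins and Dgat1 among 2 DGATs, with 1 symbol a library, the mean as a line and the SD as bars (n = 5). Gpat3 takes up to 19% in KO NASH, Lpin1 lies between 47.6% and 77.8% in WT NASH, and Dgat1 reaches 25.2% in KO chow.

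Agpat2 (chr2:26593057-26604417, minus strand), whose human counterpart is mutated in a congenital lipodystrophy, and Agpat3 (chr10:78269178-78352489, minus strand) act at the second step. Agpat2 measured 83.9, 87.4, 168, 222 and 186 CPM in WT chow and 73.3 to 95.9 CPM in KO chow. The 3 high WT chow libraries were the 3 of negative length slope, and the other 2 lay among the KO values. The log2 fold change was -0.82 (SE 0.319, adjusted p = 0.145 by edgeR), and without the 6 libraries of negative slope it was -0.05 (adjusted p = 0.96 by edgeR; over the alternatives p ran from 0.035 to 0.96). Agpat2 on the NASH diet was at 117 to 136 CPM in WT and 31.6 to 122 in KO, with replicates 1 and 5 of KO NASH lowest, a log2 fold change of -0.79 (SE 0.318, adjusted p = 0.121 by edgeR). Agpat3 was at 192 to 302 CPM in WT chow and 227 to 397 in KO chow, and at 103 to 272 in WT NASH and 266 to 360 in KO NASH. Its log2 fold changes of 0.44 (SE 0.233, adjusted p = 0.319 by edgeR) and 0.65 (SE 0.233, adjusted p = 0.0803 by edgeR) were not called. The Agpat3 value on the NASH diet was called in 5 of 15 alternatives, within males at 1.71 (adjusted p = 0.0159 by edgeR; over the alternatives p ran from 0.00797 to 0.987), and without WT NASH replicate 1 at 0.79 (adjusted p = 0.0479 by edgeR). Per kilobase, Agpat2 made up 64.5% to 82.4% of the 2 AGPAT genes in WT NASH and 28% to 58.1% in KO NASH, ranges that did not overlap; on chow they did, at 50.4% to 80.9% in WT and 41.3% to 58.1% in KO. With coding length the Agpat2 share was 34.6% to 57.7% in WT NASH and 10.2% to 28.7% in KO NASH, again without overlap, so that which AGPAT is the more abundant depends on the length used.

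The 2 lipins followed different patterns. Lipins are phosphatidic acid phosphatases that also act as nuclear coregulators. Their promoters are shown to set them side by side, in the same window and with the same capitals (Lpin1 on the minus strand, Lpin2 on the plus strand, the first of 3 RefSeq starts of Lpin2).
Lpin1, chr12:16610917-16611216: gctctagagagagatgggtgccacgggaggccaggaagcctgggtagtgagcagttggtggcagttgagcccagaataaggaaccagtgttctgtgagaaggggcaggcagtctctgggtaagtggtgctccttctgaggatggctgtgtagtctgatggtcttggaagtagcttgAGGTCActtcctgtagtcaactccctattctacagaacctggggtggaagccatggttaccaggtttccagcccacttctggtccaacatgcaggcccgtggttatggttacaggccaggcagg
Lpin2, chr17:71183282-71183581: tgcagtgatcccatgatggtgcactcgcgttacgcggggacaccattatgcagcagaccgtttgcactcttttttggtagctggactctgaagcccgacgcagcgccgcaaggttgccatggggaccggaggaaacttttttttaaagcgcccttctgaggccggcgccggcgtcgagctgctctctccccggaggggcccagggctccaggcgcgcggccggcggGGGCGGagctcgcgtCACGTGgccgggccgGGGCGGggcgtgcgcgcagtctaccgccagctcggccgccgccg
The Lpin1 window held 1 nuclear receptor element AGGTCA 74 bases before the start, a motif found in 16.3% of all promoters. The Lpin2 window held an E-box 9 bases before the start, found in 7.15%, between 2 GC boxes.

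Lpin2 (chr17:71182560-71249817, plus strand) measured 600, 590, 400, 371 and 327 CPM in WT chow and 732, 763, 444, 442 and 342 CPM in KO chow. The groups overlapped, and the log2 fold change of 0.25 was not called (SE 0.244, adjusted p = 0.613 by edgeR). In WT NASH it measured 262, 173, 285, 312 and 252 CPM, and in KO NASH 561, 451, 519, 518 and 547 CPM. All KO NASH libraries lay above all WT NASH libraries, with means of 257 ± 52.3 and 519 ± 42.2 CPM (SD, n = 5) and a log2 fold change of 1.02 (SE 0.246, adjusted p = 0.0146 by edgeR). With sex as a term the value was 0.74 and not called (adjusted p = 0.0966 by edgeR; over the alternatives p ran from 9.1e-05 to 0.505), and with sex and slope 0.56 and called (adjusted p = 0.0316 by edgeR). The values within males (0.81) and within females (0.92) were not called, with 1 library in an arm of each.

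Lpin1 (chr12:16535669-16610966, minus strand) varied widely between libraries of the same group. It measured 126, 403, 44.4, 36.5 and 76.4 CPM in WT chow and 99, 105, 122, 49.9 and 28.3 CPM in KO chow. In WT NASH it measured 606, 336, 540, 223 and 700 CPM, and in KO NASH 405, 76.5, 52.2, 218 and 441 CPM. WT NASH was high in every library, whereas KO NASH held 3 high and 2 low ones. The genotype differences, of -0.76 on chow (SE 0.638, adjusted p = 0.55 by edgeR) and -1.01 on the NASH diet (SE 0.64, adjusted p = 0.338 by edgeR), were not called. For the NASH diet the fit with the slope called it at -1.60 (adjusted p = 0.026 by edgeR) and the fit with sex and slope at -1.89 (adjusted p = 0.0407 by edgeR); over the alternatives p ran from 0.0221 to 0.857, and within males the sign was positive (0.35, adjusted p = 0.857 by edgeR). Lpin1 made up 47.6% to 77.8% of the 2 lipins per kilobase in WT NASH, 11.1% to 46.4% in WT chow, 11.3% to 50.5% in KO NASH and 9.46% to 25.8% in KO chow.

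Mogat1, the monoacylglycerol acyltransferase (chr1:78510991-78538173, plus strand), was scarce in wild-type liver and had the widest genotype difference on the NASH diet. It measured 0.323, 0.593, 0.303, 0.294 and 0.258 CPM in WT NASH, from 2 to 10 reads a library, and 3.03, 5.17, 7.7, 12.4 and 2.86 CPM in KO NASH, from 63 to 258 reads. The groups were far apart, with 26 reads in all WT NASH libraries and 637 in all KO NASH libraries. The log2 fold change was 4.11 (SE 0.66, adjusted p = 0.000759 by edgeR). It stayed called with sex as a term (4.66, adjusted p = 0.00152 by edgeR), with sex and slope (4.65, adjusted p = 5.61e-05 by edgeR) and without any 1 library (3.70 to 4.40). Within males (4.49, adjusted p = 0.0727 by edgeR) and within females (3.82, adjusted p = 0.0765 by edgeR), each with 1 library in an arm, it missed the threshold, and the filter at a mean of 5 CPM removed the gene. On chow it measured 0.415, 0.433, 1.09, 1.33 and 3.67 CPM in WT and 2.32, 2.53, 3.07, 2.47 and 9.66 CPM in KO. One library stood out in each group, replicate 5 in both, and WT replicate 5 overlapped the KO group. The value on chow was 1.54 (SE 0.57, adjusted p = 0.127 by edgeR). It was 2.36 and called without WT chow replicate 5 (adjusted p = 0.0282 by edgeR), 2.65 without the 6 libraries of negative slope (adjusted p = 0.0369 by edgeR), and 1.94 with sex and slope (adjusted p = 0.0179 by edgeR); over the alternatives p ran from 0.00605 to 0.461. The gene shares 12.84% of its exonic length with BC035947 on the opposite strand, which is not a row of the table.

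Dgat1 and Dgat2 encode unrelated enzymes that carry out the same last step. Dgat1 (chr15:76502015-76511953, minus strand) measured 24.3, 27.6, 26.8, 28.5 and 27.5 CPM in WT chow, a narrow range, and 66.7, 53.2, 37.3, 47.8 and 39.4 CPM in KO chow. In WT NASH it measured 14.9, 17.4, 14.3, 11.9 and 14.1 CPM, and in KO NASH 23.9, 21.4, 27.9, 20 and 22.4 CPM. No library of KO overlapped with WT in either diet, and no library on the NASH diet overlapped with chow in either genotype. KO exceeded WT on chow by a log2 fold change of 0.86 (SE 0.163, adjusted p = 0.0045 by edgeR), called under each of the 14 alternatives and without any 1 library. Under the NASH diet KO was higher by 0.67 (SE 0.164, adjusted p = 0.0156 by edgeR). There the call was lost with sex as a term (0.54, adjusted p = 0.107 by edgeR), with sex and slope (0.50, adjusted p = 0.06 by edgeR), within males (1.01, adjusted p = 0.0528 by edgeR) and within females (0.52, adjusted p = 0.727 by edgeR, the highest over the alternatives, of which the lowest was 0.00182).

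Dgat2 (chr7:99153658-99182719, minus strand) lay at 194 to 367 CPM in WT chow and 154 to 297 in KO chow. In WT NASH it was at 433, 486, 446, 216 and 441 CPM, and in KO NASH at 179, 234, 268, 355 and 189 CPM. The 4 female WT NASH libraries lay above all KO NASH libraries, and the male one, replicate 4, lay among them. The log2 fold changes of -0.46 (SE 0.259, adjusted p = 0.353 by edgeR) and -0.72 (SE 0.26, adjusted p = 0.082 by edgeR) were not called. On chow it was -0.75 and called with sex and slope (adjusted p = 0.0247 by edgeR; over the alternatives p ran from 0.0247 to 0.524). The value on the NASH diet was called in 4 of 15 alternatives: by DESeq2 (-0.73, adjusted p = 0.0376), by limma voom (-0.87, adjusted p = 0.00131), with the slope (-0.84, adjusted p = 0.0127 by edgeR) and without the 6 libraries of negative slope (-0.88, adjusted p = 0.00869 by edgeR). It was -0.43 with sex as a term (adjusted p = 0.448 by edgeR). It was also called without WT NASH replicate 4, at -0.88 (adjusted p = 0.0285 by edgeR) and without KO NASH replicate 4, at -0.90 (adjusted p = 0.0475 by edgeR). Within males the sign was positive (0.23, adjusted p = 0.746 by edgeR; over the alternatives p ran from 0.00131 to 0.746). Dgat1 took 7.04% to 12.9% of the 2 DGAT genes per kilobase in WT chow, 11.2% to 25.2% in KO chow, 3.12% to 5.28% in WT NASH and 5.38% to 11.9% in KO NASH. Dgat2 remained the more abundant of the 2 in every library, also with coding length, where Dgat1 reached at most 22.9%.

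**Figure D4:**
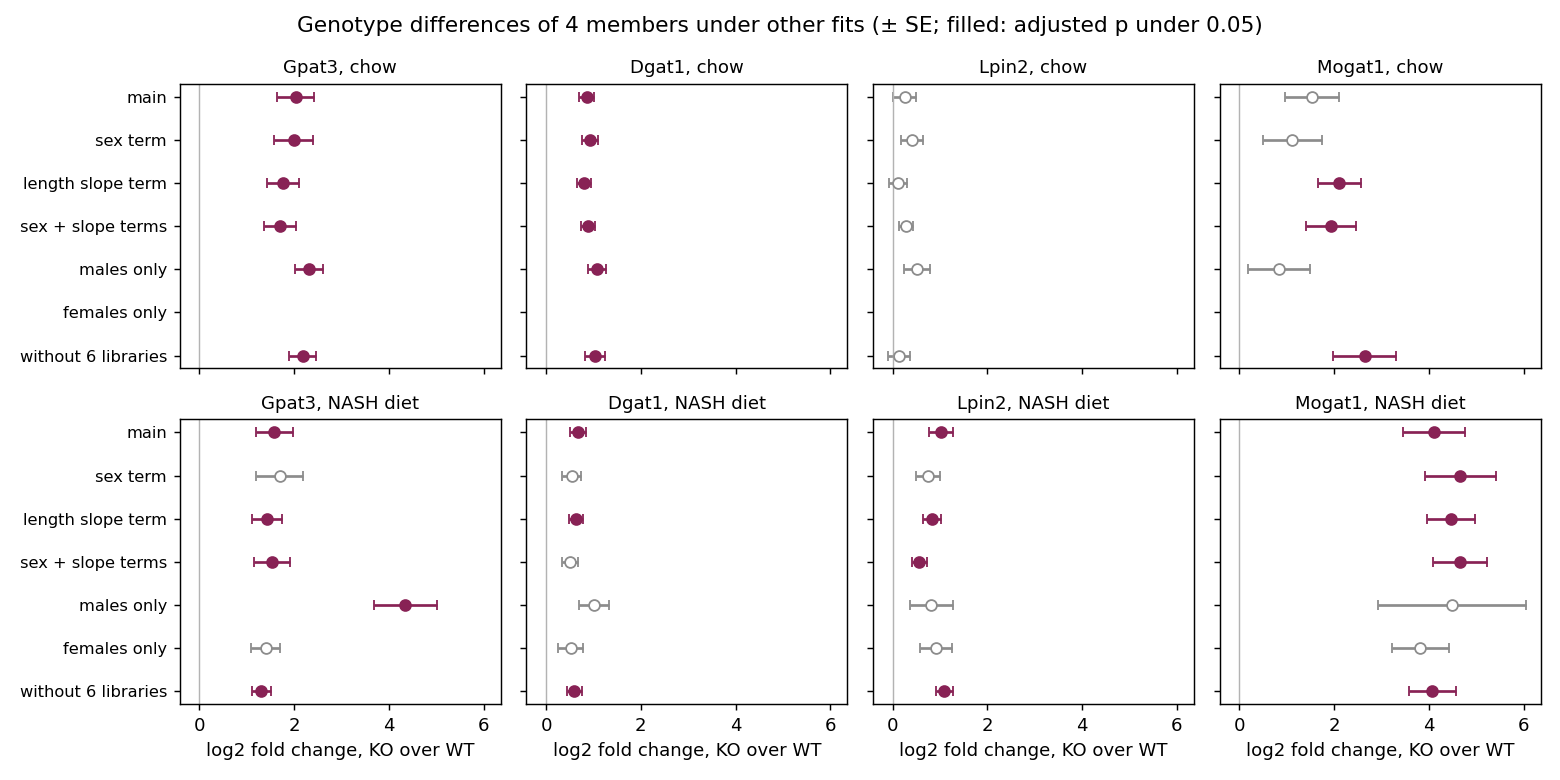
Log2 fold change of KO over WT (x axis, with SE) for Gpat3, Dgat1, Lpin2 and Mogat1 on chow (top) and on the NASH diet (bottom), under the main fit and 6 others, filled where the edgeR adjusted p was under 0.05. All values are above 0; on chow no fit within females exists, because WT chow held no female.

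The diet was compared within each genotype. In WT, 2 members fell on the NASH diet, Dgat1 and Lpin2, against 3.24% of genes called lower, and edgeR called 0 members higher against 2.69% (2 at an unadjusted p under 0.05, 1 by DESeq2, 3 by limma voom). In KO, 1 member fell, Dgat1, against 1.52% of genes, and edgeR called 0 higher against 1.77% (1 at an unadjusted p under 0.05, 0 by DESeq2 and by limma voom). The median log2 fold change of the members was -0.26 in WT and -0.07 in KO, beside 0.01 and -0.02 for all tested genes. Each diet comparison shares libraries with both genotype comparisons, so these values are not separate evidence. Dgat1 fell by 0.89 on the log2 scale in WT (SE 0.165, adjusted p = 0.00329 by edgeR) and by 1.08 in KO (SE 0.164, adjusted p = 0.00283 by edgeR). In KO the call held under all 14 alternatives. In WT, where diet and sex nearly coincide, it was lost with sex as a term (-0.73, adjusted p = 0.111 by edgeR) and within males (-1.20, adjusted p = 0.121 by edgeR), and kept with sex and slope (-0.77, adjusted p = 0.0233 by edgeR); over the alternatives p ran from 1.97e-05 to 0.121.

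Lpin2 fell by 0.83 in WT on the NASH diet (SE 0.246, adjusted p = 0.0488 by edgeR), all 5 libraries below all 5 on chow. This call lay at the threshold: it was lost in 7 of 14 alternatives, with sex as a term at -0.46 (adjusted p = 0.5 by edgeR; over the alternatives p ran from 0.00341 to 0.579), and when any 1 of WT chow replicates 1 to 4, WT NASH replicates 1, 2, 3 or 5, KO chow replicate 3 or a KO NASH library was left out (edgeR adjusted p up to 0.137). Lpin1 had the largest positive diet differences, 1.81 in WT (SE 0.654, adjusted p = 0.108 by edgeR) and 1.56 in KO (SE 0.649, adjusted p = 0.166 by edgeR), neither called. Without WT chow replicate 2, its one high library on chow, the WT value was 2.76 and called (adjusted p = 0.0126 by edgeR). The Mogat1 diet difference in WT was -1.93 (SE 0.671, adjusted p = 0.0934 by edgeR); it was called at -2.20 without WT chow replicate 1 (adjusted p = 0.0491 by edgeR) and at -2.18 without replicate 2 (adjusted p = 0.0493 by edgeR). Without the 6 libraries of negative slope it was -0.18 (adjusted p = 0.92 by edgeR; over the alternatives p ran from 0.0307 to 0.92). The length slope changed further diet calls. With it as a term, Gpat4 was called lower on the NASH diet in WT (-1.08, adjusted p = 0.00876 by edgeR) and in KO (-1.30, adjusted p = 0.00653 by edgeR), where the values without it were -0.87 (adjusted p = 0.158 by edgeR) and -1.02 (adjusted p = 0.11 by edgeR). Gpam was likewise called lower in KO (-0.66, adjusted p = 0.0393 by edgeR, against -0.48 and 0.302 without the slope). In WT the same fit called Agpat3 lower (-0.51, adjusted p = 0.0488 by edgeR) and Lpin1 higher (1.52, adjusted p = 0.036 by edgeR). In KO the fit with sex and slope called Mogat1 higher (1.40, adjusted p = 0.0455 by edgeR, against 0.64 and 0.479). The Gpat4 and Gpam calls were also made without the 6 libraries of negative slope. Gpat3 showed diet differences of 0.38 in WT (SE 0.387, adjusted p = 0.59 by edgeR) and -0.07 in KO (SE 0.378, adjusted p = 0.927 by edgeR).

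Whether the genotype difference itself depended on diet was tested as the interaction, the KO minus WT difference under the NASH diet minus the one under chow. edgeR called 0 members, where 0.0554% of all genes were called positive and 0.0831% negative. At an unadjusted p under 0.05 there were 2, Mogat1 and Lpin2, both positive; DESeq2 called 0 and limma voom 1, Mogat1. The Mogat1 interaction was 2.57 (SE 0.858, adjusted p = 0.299 by edgeR) and that of Lpin2 0.76 (SE 0.345, adjusted p = 0.563 by edgeR). Those of Gpat3 (-0.45, SE 0.541) and Dgat1 (-0.19, SE 0.23) were smaller than their errors. The fact that Lpin2 and Mogat1 were called on 1 diet and not on the other is therefore not shown to be a difference between diets.

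Other genes around the pathway were read from 7 lists. Over all tested genes, edgeR called 3.03% higher and 2.49% lower in KO on chow, and 4.9% and 4.74% on the NASH diet. The lists are short, and their counts of called genes are given as a description. The gene with the largest called change in each list and genotype comparison is named by rule, and the further called genes were named after their values were seen; the full set of other fits, with each library left out in turn, was run for the former, and 5 other fits for all. Among other acyltransferases and phosphatases of these families, 7 of 11 were tested; on chow 2 rose in KO, Lclat1, a lysocardiolipin acyltransferase, by a log2 fold change of 1.11 (SE 0.298, adjusted p = 0.0339 by edgeR) and Lpin3, the third lipin, by 1.10 (SE 0.279, adjusted p = 0.0257 by edgeR), a call lost without the 6 libraries of negative slope. For the NASH diet edgeR and DESeq2 called 0 (1 lower, Awat2, at an unadjusted p under 0.05 and by limma voom). Of 8 genes of glycerol transport and glycerol 3-phosphate metabolism, 2 rose in KO on each diet, the glycerol channels Aqp3 and Aqp7. Aqp7 was nearly absent in WT, with 1 read over the 5 libraries on each diet, and had 631 reads in KO chow and 661 in KO NASH. The ratio of CPM was 458 on chow (95% exact counting interval 81.9 to 18100) and 444 on the NASH diet (79.4 to 17600), intervals that cover counting error only. Aqp3 was at 0.111 CPM in WT chow and 4.81 in KO chow, and at 0.0485 in WT NASH and 0.995 in KO NASH. Glycerol kinase (Gk) and Gpd1 make glycerol 3-phosphate. Gk was at 0.67 on chow (SE 0.252, adjusted p = 0.13 by edgeR) and 0.78 on the NASH diet (SE 0.252, adjusted p = 0.0559 by edgeR), not called by edgeR. However, limma voom called it higher on both diets, DESeq2 and the fit without the 6 libraries on the NASH diet. Gpd1 was at -0.08 (SE 0.283, adjusted p = 0.904 by edgeR) and 0.09 (SE 0.283, adjusted p = 0.876 by edgeR) and was called by none of these. Gpd2 was at 0.91 on chow (SE 0.293, adjusted p = 0.0746 by edgeR), where DESeq2 and limma voom called it higher. On the NASH diet Gpd2 was at -0.64 (SE 0.291, adjusted p = 0.169 by edgeR), where limma voom and the fit without the 6 libraries called it lower.

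Among 9 tested genes of fatty acid uptake and activation, edgeR called 2 higher in KO on each diet and 0 lower. The fatty acid activating enzyme Acsl4 rose on chow by 1.48 (SE 0.372, adjusted p = 0.0243 by edgeR) and on the NASH diet by 1.22 (SE 0.37, adjusted p = 0.0421 by edgeR), as did the fatty acid transporters Slc27a4 on chow (1.33, adjusted p = 0.0183 by edgeR) and Slc27a2 on the NASH diet (0.87, adjusted p = 0.0297 by edgeR). Acsl3 went the other way on the NASH diet (-0.95, SE 0.303, adjusted p = 0.0512 by edgeR). DESeq2 called 2 higher and 1 lower there, Acsl3. With limma voom 4 were called higher and 2 lower there, Acsl3 and Slc27a5. On chow limma voom called 3 higher and 1 lower, Slc27a5. The Acsl4 call on chow was lost without WT chow replicate 3 or 5 or KO chow replicate 1 or 2 (edgeR adjusted p up to 0.0671) and without the 6 libraries of negative slope (0.0704). The call on the NASH diet was lost in 7 of 15 alternatives, among them sex as a term (0.86, adjusted p = 0.189 by edgeR), and without WT chow replicate 3, WT NASH replicate 1, 2, 3 or 5, or KO NASH replicate 1, 3 or 5 (edgeR adjusted p up to 0.106). Lclat1 lost its call when any of WT chow replicates 3, 4 and 5 or KO chow replicates 1, 2 and 3 was left out (edgeR adjusted p up to 0.123). It also lost it with only the 2 groups compared (adjusted p = 0.122 by edgeR). In the phospholipid branch, which uses the same phosphatidic acid and diacylglycerol, edgeR called 0 of 14 genes between genotypes on either diet. At an unadjusted p under 0.05 there were 1 higher and 2 lower on chow and 2 and 2 on the NASH diet; DESeq2 called 1 gene on chow and 2 on the NASH diet, and limma voom 6 and 4.

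Of 10 genes of triglyceride breakdown, 2 rose in KO on chow, Pnpla2, the adipose triglyceride lipase (1.99, SE 0.483, adjusted p = 0.0208 by edgeR), and Lipe, the hormone-sensitive lipase (1.28, SE 0.313, adjusted p = 0.0213 by edgeR). Ces3a went the other way, from a mean of 1760 CPM in WT chow to 696 in KO chow (-1.34, SE 0.397, adjusted p = 0.0516 by edgeR). DESeq2, limma voom and the fits with sex and with sex and slope called Ces3a lower on chow. Both fits with sex also called it lower on the NASH diet. On chow limma voom further called Ces1f lower and Mgll higher. In KO NASH 3 rose, Pnpla2 (1.58, SE 0.477, adjusted p = 0.0412 by edgeR), Lipe (1.81, SE 0.319, adjusted p = 0.00161 by edgeR) and G0s2, an inhibitor of Pnpla2 (2.14, SE 0.631, adjusted p = 0.0374 by edgeR). Pnpla3, a lipid droplet protein, had a log2 fold change of -3.57 there and was called lower (SE 0.738, adjusted p = 0.00537 by edgeR), from a mean of 3.15 CPM in WT NASH to 0.267 in KO NASH; with sex as a term it was -2.63 and not called (adjusted p = 0.0774 by edgeR), and within males 0.25 (adjusted p = 0.939 by edgeR; over the alternatives p ran from 6.65e-05 to 0.939). The Pnpla2 call on chow was lost without WT chow replicate 3 or 4 or KO chow replicate 1 or 2 (edgeR adjusted p up to 0.0685). It was also lost with only the 2 groups compared (adjusted p = 0.099 by edgeR). Of 8 partners of the enzymes and droplet proteins, 2 rose on each diet. Fitm2, an endoplasmic reticulum protein of droplet formation, rose on chow by 1.69 (SE 0.302, adjusted p = 0.00288 by edgeR) and on the NASH diet by 2.01 (SE 0.306, adjusted p = 0.000563 by edgeR). Bscl2, the seipin gene, also rose on chow (1.12, SE 0.281, adjusted p = 0.0244 by edgeR) and Fitm1 on the NASH diet (2.86, SE 0.566, adjusted p = 0.00396 by edgeR). With sex as a term, Aqp3, Aqp7, Lipe, G0s2, Fitm1 and Fitm2 kept their calls on the NASH diet, whereas Acsl4, Slc27a2, Pnpla2 and Pnpla3 lost theirs.

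Among 13 transcription factors and regulators of the pathway, Mlxipl, which encodes the carbohydrate response factor ChREBP, fell in KO on chow by 1.19 (SE 0.325, adjusted p = 0.0367 by edgeR) and on the NASH diet by 1.23 (SE 0.325, adjusted p = 0.0231 by edgeR). It was the only one edgeR called on chow (DESeq2 also called Pparg higher, and limma voom called 2 higher and 2 lower), and on the NASH diet Srebf1, the gene of the sterol regulatory factor SREBP-1, also fell (-0.97, SE 0.294, adjusted p = 0.0417 by edgeR), a call lost with sex as a term and kept with sex and slope. Srebf1 stood at 19 CPM in WT chow and 28.6 in KO chow, and 117 in WT NASH and 59.5 in KO NASH. The Mlxipl call on chow was lost without any 1 of WT chow replicates 1, 2, 3 and 5 or KO chow replicates 1, 2 and 4 (edgeR adjusted p up to 0.105) and without the 6 libraries of negative slope (0.12). The Mlxipl call on the NASH diet was lost without KO NASH replicate 1, 3 or 5 (edgeR adjusted p up to 0.0703) with sex and slope (-0.87, adjusted p = 0.092 by edgeR), with KO NASH replicates 1 and 5 summed (-1.05, adjusted p = 0.0654 by edgeR), within each sex and with sex as a term (-0.79, adjusted p = 0.192 by edgeR; over the alternatives p ran from 0.000526 to 0.615). Pparg, the factor of fat storage, was not called by edgeR between genotypes, at 1.00 on chow (SE 0.323, adjusted p = 0.0769 by edgeR) and 0.66 on the NASH diet (SE 0.315, adjusted p = 0.192 by edgeR), but was called higher on the NASH diet with sex and slope.

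**Figure D5:**
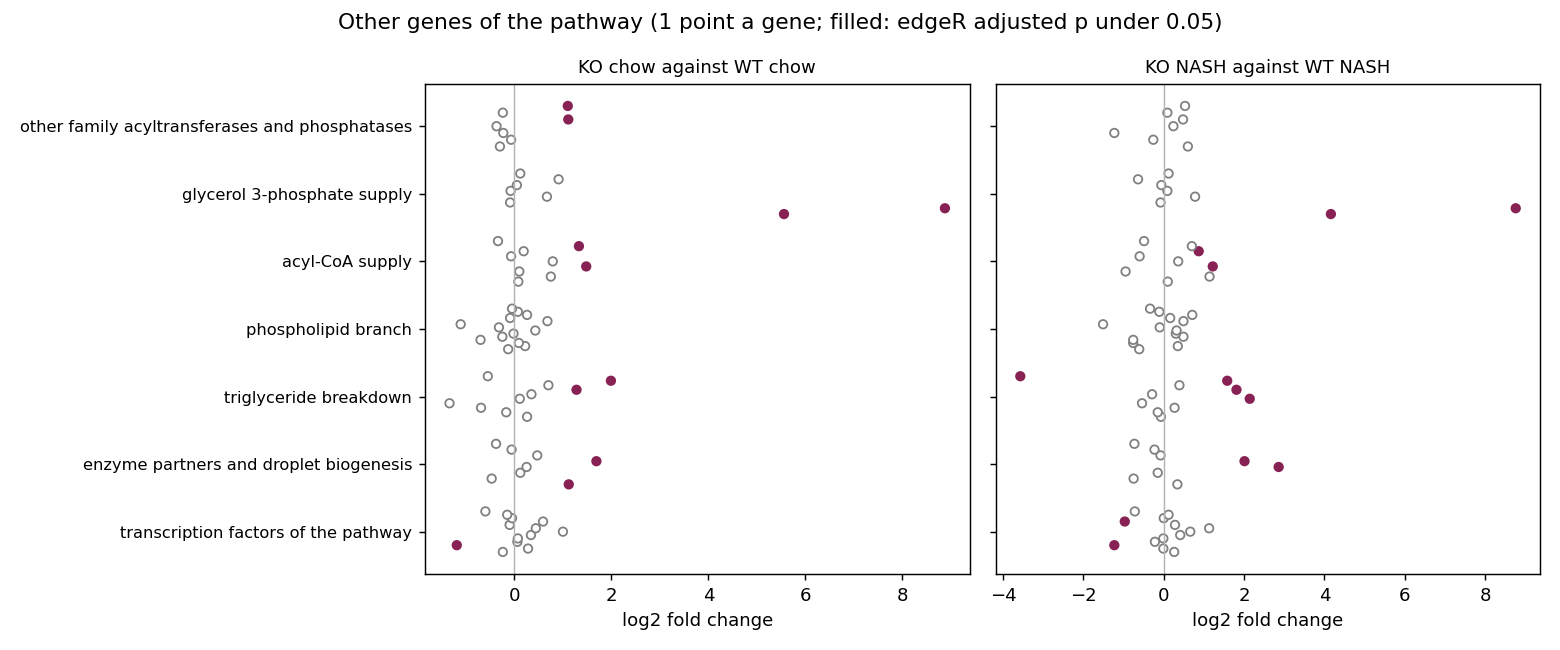
Log2 fold changes of KO over WT (x axis) on chow (left) and on the NASH diet (right) for the tested genes of 7 lists, 1 point a gene, filled where the edgeR adjusted p was under 0.05. The far points of the glycerol list are Aqp3 and Aqp7, whose fitted values rest on very few WT reads; the phospholipid list has no filled point.

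The genes whose pattern over the 20 libraries was most like that of Gpat3, by Pearson correlation of log2 CPM over 8966 genes, were Itga7 (0.932), Iba57 (0.917), Sh3bgrl2 (0.908), Cda (0.904) and Mta3 (0.902). By Spearman rank correlation they were at 0.875, 0.871, 0.884, 0.883 and 0.832 and none was among the first 5 of that measure. All 20 points share the 4 groups, the sexes and the length slopes, and the values are given as a description. Among the other members, Agpat3 was the most like Gpat3 (Pearson 0.83, Spearman 0.72; 0.743 after removing group means), while Agpat2 ran opposite over all libraries (-0.504 and -0.553) but not within groups (0.0431 after removing group means).

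Markers of other cells were read in the same libraries. Their genotype calls stand beside 3.03% of all tested genes called higher and 2.49% lower in KO on chow, and 4.9% and 4.74% on the NASH diet. Of 9 adipose tissue markers, 6 were at or near 0: Lep had no read in any library, Adipoq reached at most 0.545 CPM, Plin1 0.441, Retn 0.31, Adig 0.287 and Slc36a2 0.588. Cfd, the gene of adipsin, differed from these: it had 21 reads in WT chow, 163 in KO chow, 1 in WT NASH and 1703 in KO NASH, and reached 54.4 CPM. The summed level of the list, which is mostly Car3, was 222 to 1140 CPM in WT chow and 170 to 367 in KO chow, and 1070 to 2820 in WT NASH and 273 to 2090 in KO NASH. Of its 3 tested genes, Lipe, which belongs to the breakdown list as well, rose in KO on both diets, and Cfd rose on the NASH diet. Cfd was also called there with sex as a term and without the 6 libraries. The third tested gene, Car3, had a negative log2 fold change in KO on both diets. On the NASH diet Car3 was lower at an unadjusted p under 0.05 and called lower by limma voom, but not by edgeR or DESeq2. Among 9 macrophage markers 1 rose in KO on each diet, Cd68 on chow and Gpnmb on the NASH diet. Of the 9, 8 had a positive log2 fold change on chow (median 0.47) and 4 on the NASH diet (median -0.27). Cd68 lost its call with sex as a term, where Gpnmb was called instead, and without the 6 libraries, where no macrophage gene was called on chow. Gpnmb on the NASH diet kept its call in both. Among 6 endothelial markers 2 rose on the NASH diet, Kdr and Lyve1, neither called with sex as a term. The macrophage sums were 288 to 1130 CPM in WT chow, 444 to 1790 in KO chow, 438 to 1090 in WT NASH and 359 to 506 in KO NASH. The endothelial sums were 201 to 318, 242 to 300, 162 to 248 and 202 to 324 in the same order. No stellate cell marker of 8 was called between genotypes by edgeR or DESeq2 (1 and 2 higher at an unadjusted p under 0.05 on chow and the NASH diet, 0 and 3 by limma voom), with sums of 74.7 to 154, 72.6 to 167, 125 to 180 and 153 to 281. Of 5 tested red blood cell genes, edgeR called 2 lower on the NASH diet in each genotype, beside 3.24% of all genes in WT and 1.52% in KO, with sums of 81.7 to 245 in WT chow and 89.5 to 182 in KO chow, and 25 to 179 in WT NASH and 34.7 to 86 in KO NASH. Pancreas genes summed to 7.05 to 24 CPM in WT chow and 2.57 to 10.3 in KO chow, and 11.7 to 107 in WT NASH and 3.33 to 4.45 in KO NASH, and 4 of the 6 genes had at most 3 reads over all 20 libraries. The 1 tested, Cela1, was called lower in KO on the NASH diet, also with sex as a term and without the 6 libraries. The part of these cells in the differences of the 10 enzymes was not tested.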

How the data were processed

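The deposited table gives raw read counts per gene symbol for 20 libraries, as whole numbers with a different total in each; the authors aligned with HISAT2 2.0.4 to GRCm38, per the submitters' processing notes, while for the counting program and its use of strand the notes give nothing. The NASH columns carry the name HFD and were matched by genotype, the chow columns being named as such. Counts were fitted in R 4.3.3 with edgeR 4.0.16: filterByExpr (minimum count 10) kept 14440 genes with 99.91% of all counts, TMM scaled the libraries, and 1 model with 4 group means was fitted to all 20 libraries (common biological coefficient of variation 39%). Quasi-likelihood F tests were adjusted by Benjamini-Hochberg over all tested genes. A standard error is the size of the unshrunk log2 fold change over the square root of F. The steps were tested on simulated counts.

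Sex was read from at least 100 counts over 4 Y-linked genes. Length slopes used 9520 genes; exonic and coding lengths, loci and overlaps came from GENCODE M21 (GRCm38), matched for 93.51% of the tested genes. Promoters came from RefSeq (GRCm38.p6), and 7 of the 10 members matched; Gpat4, Dgat1 and Dgat2 did not. Named by rule were the 10 members, Pck1, the most changed called gene of each pathway list in each genotype comparison (mean of at least 1 CPM), and the 5 genes most correlated with Gpat3 (mean of at least 5 CPM, prior count 2, no predicted genes). The members, lists and tests were chosen with earlier results of these data known. KO NASH replicates 1 and 5 were the most alike pair, but differed by more than sampling noise, and were kept as 2 samples. Reads without molecular identifiers limit intervals to counting error. Other fits used DESeq2 1.42.0, limma 3.58.1 (voom with quality weights), RLE scaling, scaling without the 20 most abundant genes, other low-count filters, the replicate number as a block, only the 2 groups compared, sex and slope as terms, each sex alone and each library left out. The fit without the 6 libraries of negative slope, and the list counts under other fits, were added after seeing the data.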

Additional observations from a re-analysis of the deposited data

Results flagged for a closer look

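In 7 of the 40 combinations of member and group, 1 library stood apart from the other 4 by more than Dixon's 95% value for 5 samples; chance alone gives about 1 in 20. Gpat3 was at 1.91 CPM in WT NASH replicate 4, the other 4 libraries at 13.7 to 17.8. Dgat2 was at 216 CPM in the same library, the others at 433 to 486. That library is the only male of its group, the shallowest of all 20 and 1 of the 6 of negative length slope, and these cannot be told apart. Agpat2 was at 117 CPM in WT NASH replicate 3, the others at 131 to 136. Lpin1 was at 403 CPM in WT chow replicate 2, the others at 36.5 to 126. Mogat1 was flagged in 3 groups: 3.67 CPM in WT chow replicate 5 (others 0.415 to 1.33), 0.593 CPM in WT NASH replicate 2 (others 0.258 to 0.323) and 9.66 CPM in KO chow replicate 5 (others 2.32 to 3.07).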

How the results depend on the processing

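The number of members called on chow between genotypes was 2, and became 7 with limma voom and 5 with sex and slope as terms; leaving out 1 library gave 2 to 3. On the NASH diet it was 4, and became 9 with limma voom, 7 with the slope, 7 without the 6 libraries of negative slope (chosen after seeing the data), 2 within males, 1 with sex as a term and 0 within females; leaving out 1 library gave 4 to 5. For the diet in WT it was 2, and became 5 with limma voom and with the slope, 4 with DESeq2, 1 without a low-count filter, with only the 2 groups, with both terms and with KO NASH replicates 1 and 5 summed, and 0 with sex as a term and within males; leaving out 1 library gave 1 to 3. For the diet in KO it was 1, and became 2 with DESeq2, 3 with limma voom, with the slope and without the 6 libraries, and 4 with both terms; leaving out 1 library gave 1. The interaction had 0 called, and 1 with limma voom. The share of all genes called under each other fit is not given here, so these counts are not read as results about the members. Within males, where WT NASH was 1 library, the median of all genes was 0.19 for KO NASH against WT NASH. The values within males include it, and its cause was not tested.

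No called member changed sign. Among other genes, Pnpla3 on the NASH diet was -3.57 and became 0.25 within males. Of 50 member results, 18 had a change of sign in some alternative while uncalled in both. Fitted with a replicate block, the counts were 2, 4, 1, 1 and 0 in the order above, with 1 in place of 2 for the diet in WT (Lpin2, edgeR adjusted p = 0.0612). The mean correlation of same-numbered deviations ran from -0.094 to 0.242 over the 6 pairs of groups and was positive in 4 of them. The mean over other numbers (-0.0629 to 0.0247) is no separate comparison, because the deviations within a group sum to 0. The lowest single same-numbered value was -0.405, and at most 3 of 5 libraries were most like their own number. Not every same-numbered pair deviated together, so the numbers were not taken to pair the mice. Mogat1 has no value with the filter at a mean of 5 CPM, nor for the diet in WT with only those groups; Aqp7 has none where its WT libraries are all at 0; no fit within females includes WT chow. With coding length, the place of a member in WT chow moved for Dgat2, Agpat2, Gpam, Agpat3 and Gpat4.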

Other observations

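The genes most like 3 other members over the 20 libraries were read with the measure used for Gpat3; these members were chosen after their values were seen. Dgat1 ran closest to Lpcat3, an acyltransferase that remodels phospholipids (Pearson 0.958, Spearman 0.962; 0.608 after removing group means), then to Gys2, the liver glycogen synthase (0.941, 0.892 and 0.357). Mogat1 was most like Pnldc1 (0.883, 0.815 and 0.686), then Pmm1 (0.853, 0.786 and 0.534) and Fitm1 (0.837, 0.782 and 0.668). The rest of its first 6 were Osbpl3 (0.817, 0.738 and -0.0503), Mrpl45 (0.811, 0.663 and 0.453) and the droplet protein gene Cidec (0.809, 0.695 and 0.289). Lpin1 was most like Syne1 (0.888 and 0.905), Jade2 (0.884 and 0.947) and Zhx3 (0.88 and 0.881). After removing group means, the Pearson values were 0.855, 0.785 and 0.816. All genes named here were picked by their correlation over the same 20 libraries, so the values are a description.

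Within groups, the members did not all vary together. After removing group means, Agpat3 went with Gpat3 (Pearson 0.743) and Dgat2 (0.737), and Gpam with Lpin2 (0.76) and Gpat4 (0.707), whereas Mogat1 ran opposite to Lpin2 (-0.71) and with Agpat2 (0.709). These 20 deviations share the sexes and length slopes described above.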
